A study of Mus musculus with 6 samples.

Results

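Transcript levels of 9 genes that carry the insulin signal from its receptor to Akt were compared in quadriceps muscle of mice with and without a genocopy of the human rs6190 allele. The genes were the receptor Insr, the adaptor Irs2, the PI3-kinase subunits Pik3r1 and Pik3ca, the kinases Akt1 and Akt2, the inhibitors Grb10 and Ptpn1, and the Akt substrate Gsk3b. All transcript rows with these symbols were taken, which gave 60 of 105129 rows and 9 of 33641 gene symbols. The values are TPM (an abundance per transcript length, scaled to the same total in each library), per isoform and summed per gene. Of the 60 rows, 52 were above 0 in at least 1 library and 8 were listed at 0 in all.

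The 6 libraries came from male mice, 3 labelled homozygous for the rs6190 allele and 3 labelled homozygous for the reference allele (WT), each given as 4 months old in the sample labels. The mice were littermates of heterozygous parents, and tissue was frozen after harvest at about zeitgeber time 4. No treatment is named for either group. The labels do not say which mice shared a litter.

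Insulin binding activates the receptor's tyrosine kinase, which phosphorylates IRS adaptor proteins. Phosphorylated IRS recruits the regulatory subunit of PI3-kinase, whose catalytic subunit makes PIP3 at the membrane, where Akt is phosphorylated and switched on. In skeletal muscle Akt2 drives GLUT4 to the cell surface, and Akt inhibits GSK3, which releases glycogen synthase. Glucocorticoids, the ligands of the receptor whose gene (Nr3c1) carries rs6190, are known to cause insulin resistance in muscle.

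Of the 9 genes, 6 had higher TPM in every homozygous library than in every WT library: Insr, Irs2, Pik3r1, Pik3ca, Ptpn1 and Gsk3b. Over all 11099 genes tested, 34.7% had homozygous libraries above without overlap. The ratio of group means ran from 1.14 for Grb10 and 1.15 for Akt2 to 2.22 for Irs2. None of the 9 passed the threshold (limma on log2(TPM + 1), Benjamini-Hochberg adjusted p under 0.05 over all genes), and 0.0% of all genes did. The adjusted p ran from 0.168 to 0.587. In simulated data this gene test recovered 0% of log2 changes of 0.5 and 46.5% of changes of 1. A gene that did not pass may thus still differ. At an unadjusted p under 0.05 were 6 of the 9, all with higher homozygous means (Insr, Irs2, Pik3r1, Akt1, Ptpn1 and Gsk3b), against 23.7% of all genes. With libraries weighted by their spread (limma array weights), Irs2, Pik3r1 and Ptpn1 passed the threshold, at adjusted p of 0.0416, 0.0401 and 0.0432, and so did 7.3% of all genes.

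The libraries differed in composition, and WT replicate 3 stood apart. Its pairwise correlations with the others across genes were 0.951 to 0.965, and those among the remaining libraries 0.972 to 0.987. Genes are no independent replicates in such a correlation. It held the lowest value of 8 of the 9 genes, all but Ptpn1. Mitochondrial transcripts took 14.3% of TPM in WT replicate 3 and 20.9% to 33.9% in the others. Of 40 marker genes of muscle fibres and other cell types, 0 were at 0 in any library. Muscle fibre markers (Ckm, Acta1, Mb and Ttn) summed to 39591 to 61956 TPM, high in every library. The 7 slow-fibre markers summed to 1478, 7584 and 1691 TPM in homozygous and 1405, 887 and 192 TPM in WT libraries. Homozygous replicate 2 thus stood far above all other libraries in this sum, and homozygous replicate 1 lay close to WT replicate 1. The 3 Schwann cell markers summed to 49.6, 68.3 and 14.1 TPM in homozygous and 10.1, 11.8 and 7.56 TPM in WT libraries. Both sums were without overlap. Within the slow-fibre list Tnnt1 and Myl3 overlapped between groups. In WT replicate 3 the 8 fast-fibre markers reached a sum of 158567 TPM, while sums elsewhere were 69188 to 94418 TPM. Myh1 and Myh2 of this list went the other way and were lowest there, while the rest were highest there. Myh1 was 942 to 1253 TPM in homozygous and 239 to 464 TPM in WT libraries. Myh2 was 478 to 728 and 122 to 361 TPM, so both were without overlap. The 3 fibroblast markers summed to 58.6 TPM in WT replicate 3, with 129.6 to 190.7 TPM elsewhere. Most of this sum was Dcn, at 53.0 TPM in WT replicate 3. Dcn and Pdgfra were lowest in that library, while Col1a1, at 4.59 TPM, lay within the range of the others (1.95 to 6.24 TPM). Sums of the 4 endothelial, 5 adipocyte and 4 immune markers overlapped between groups. In homozygous against WT libraries, endothelial sums were 29.1 to 34.3 against 23.3 to 32.8 TPM. Adipocyte sums were 144 to 182 against 142 to 168 TPM, and immune sums 4.21 to 6.48 against 2.14 to 4.57 TPM. Fabp4 alone held 139.6 to 180.6 TPM of the adipocyte sums. The part of fibre type, nerve or connective tissue in the values below was not tested, and in bulk tissue fewer cells of a type and less RNA per cell cannot be told apart.

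The median log2 difference over all genes was 0.26 (homozygous minus WT), so each gene is also given relative to this shift. For the 9 genes the median was 0.62. After each library was centred on its median, the median of all genes was -0.037 and that of the 9 genes 0.32. Genes with an unadjusted p under 0.05 were split 2636 higher to 61 lower as deposited, 405 to 512 after centring and 504 to 482 after quantile normalization. After centring, groups stayed apart with homozygous libraries above for 3 of the 9 (Insr, Irs2 and Pik3r1), against 6.79% of all genes. The same 3 stayed apart after quantile normalization, where the background was 8.05%, and after a trend on transcript length was removed from each library, where it was 7.38%. Without WT replicate 3, 6 of the 9 did, against 42.1% of all genes. At an unadjusted p under 0.05 with higher homozygous means, the 6 of the 9 became 2 after centring, quantile normalization or removal of the length trend, against 3.65%, 4.54% and 4.32% of all genes. With mitochondrial transcripts left out there were 4, against 9.7%, and groups were apart for 4 (Insr, Irs2, Pik3r1 and Ptpn1), against 19.6%. The count was 2 without homozygous replicate 2, against 9.69%, 3 without homozygous replicate 3, against 12.2%, and 4 without WT replicate 3, against 21.1%.

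**Figure D1:**
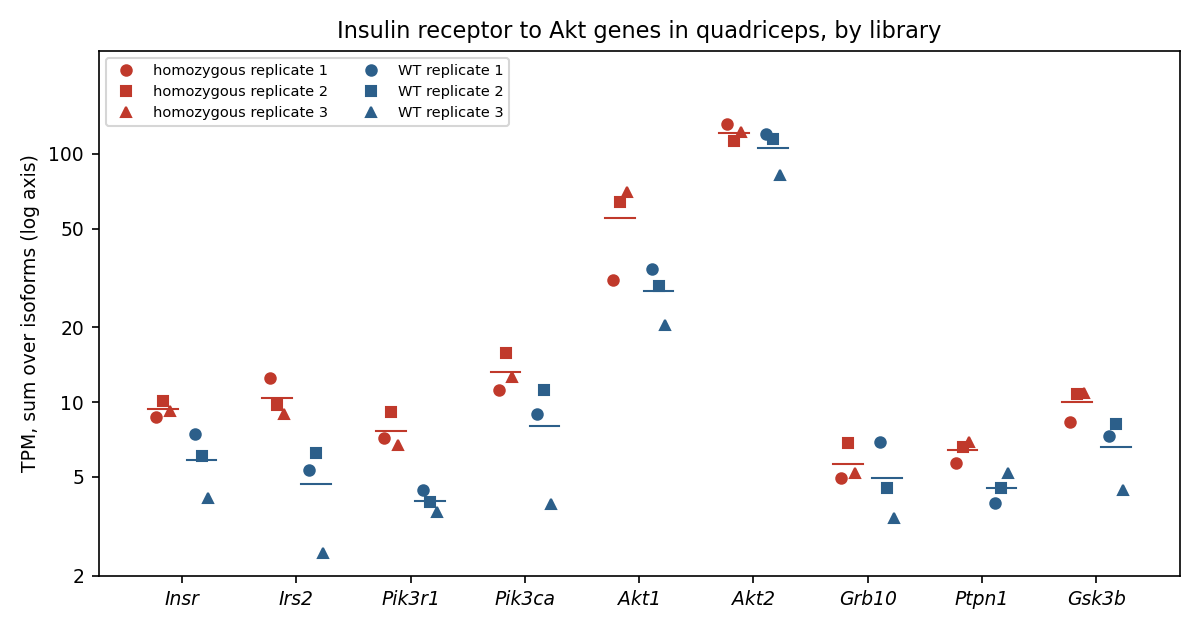
TPM summed over isoforms (log axis) for the 9 genes in each of 6 libraries, with homozygous libraries in red, WT in blue, marker shapes for replicates 1 to 3 and lines at group means. WT replicate 3 (blue triangles) is lowest for every gene but Ptpn1, and homozygous replicate 1 (red circles) lies near the WT libraries for Akt1.

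Levels per transcript length spanned a wide range. Over the 6 libraries Akt2 averaged 113.8 TPM and Akt1 41.5 TPM, and in every library Akt2 lay above Akt1 and Akt1 above the rest. Pik3ca followed at 10.6 TPM, Gsk3b at 8.29, Insr at 7.61, Irs2 at 7.55, Pik3r1 at 5.84, Ptpn1 at 5.47 and Grb10 at 5.30 TPM. From Pik3ca down, neighbours in this order had overlapping ranges and none was above the next in all 6 libraries.

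Insr (chromosome 8, 3122061 to 3279617, minus strand, GRCm38) encodes the insulin receptor. It was 8.73, 10.1 and 9.24 TPM in homozygous replicates 1, 2 and 3 and 7.42, 6.05 and 4.10 TPM in WT replicates 1, 2 and 3. The groups did not overlap, and the WT libraries were the more spread. Group means were 9.36 ± 0.696 and 5.86 ± 1.67 TPM (SD over n = 3 in each group). The difference in log2 was 0.62 (SE 0.20; limma, adjusted p 0.168), or 0.36 beyond the all-gene median. Centring made it 0.32 and removal of the length trend 0.21.

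Insr is spliced into a short form A and a long form B, which contains a small extra exon and predominates in adult liver. The annotation has 1 full-length coding transcript, Insr-201 with 21 exons. A 672 nt fragment, Insr-203, holds an exon of 36 nt (12 codons) that Insr-201 lacks, at chromosome 8, 3181702 to 3181737, minus strand. It is shown because it is the only stretch of Insr-203 that tells the 2 rows apart.
Insr-203 exon: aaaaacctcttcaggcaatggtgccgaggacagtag
Insr-201 was 8.02, 9.36 and 8.19 TPM in homozygous and 7.29, 5.96 and 3.48 TPM in WT libraries. Insr-203 was 0.528, 0.627 and 0.580 TPM in homozygous libraries, listed at 0 in WT replicates 1 and 2, and 0.557 TPM in WT replicate 3. WT replicate 3, where the gene sum was lowest, thus had an Insr-203 value within the homozygous range. As no full-length row carries the exon, the form B share cannot be read from these rows.

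Irs2 (chromosome 8, 10984681 to 11008458, minus strand) encodes an adaptor that the active receptor phosphorylates, and its gene is a known target of FoxO factors. It has 1 transcript row. Its level was 12.5, 9.71 and 8.995 TPM in homozygous and 5.34, 6.26 and 2.47 TPM in WT libraries. Every homozygous library was above every WT library, with means of 10.4 ± 1.85 and 4.69 ± 1.97 TPM (SD over n = 3 in each group). The log2 difference of 1.06 (SE 0.28; limma, adjusted p 0.168) had the greatest size among the 9 genes and lay 0.79 beyond the all-gene median. Centring made it 0.76, removal of the length trend 0.67 and leaving out WT replicate 3 0.74.

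The PI3-kinase subunits are encoded by Pik3r1 (chromosome 13, 101680563 to 101768217, minus strand), the regulatory part, and Pik3ca (chromosome 3, 32397671 to 32468486, plus strand), the catalytic part. Pik3r1 was 7.15, 9.15 and 6.74 TPM in homozygous and 4.42, 3.95 and 3.61 TPM in WT libraries. The groups were well apart, with means of 7.68 ± 1.29 and 3.99 ± 0.406 TPM (SD over n = 3 in each group). The difference in log2 was 0.79 (SE 0.16; limma, adjusted p 0.168), or 0.53 beyond the all-gene median. Centring made it 0.49 and removal of the length trend 0.40.

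Pik3ca was 11.2, 15.7 and 12.6 TPM in homozygous and 8.99, 11.2 and 3.90 TPM in WT libraries. Homozygous replicate 1 and WT replicate 2 were nearly equal, so the groups were only just apart. Among the main rows of the gene, only Pik3ca-204, a fragment with a retained intron, had groups apart. The main coding rows, Pik3ca-202 and Pik3ca-203, each overlapped between groups. The log2 difference was 0.74 (SE 0.32; limma, adjusted p 0.206), or 0.48 beyond the all-gene median. Centring made it 0.44 and removal of the length trend 0.38, with groups that overlapped in both. Without WT replicate 3 it was 0.35, where the median of all genes was 0.20.

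Pik3r1 yields several proteins from separate starts. The long form p85-alpha (Pik3r1-202, 724 codons) begins 75587 nt upstream of the short form p55-alpha (Pik3r1-201, 454 codons), which lacks the N-terminal part of p85-alpha and is known to be abundant in muscle. The coding stretch found in the short transcript and not in the long one is 106 nt, at chromosome 13, 101692183 to 101692288, with the start codon in capitals.
Pik3r1-201 coding start: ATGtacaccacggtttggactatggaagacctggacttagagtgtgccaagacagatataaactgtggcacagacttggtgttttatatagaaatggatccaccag
The 250 bases before each start differ in their CG dinucleotides, in capitals: 30 before p85-alpha (chr13:101768218-101768467) and 6 before p55-alpha (chr13:101692631-101692880), against a median of 6 over 32851 such windows of RefSeq genes (GRCm38.p6, minus strand for both). The starts are those of RefSeq.
Before Pik3r1-202: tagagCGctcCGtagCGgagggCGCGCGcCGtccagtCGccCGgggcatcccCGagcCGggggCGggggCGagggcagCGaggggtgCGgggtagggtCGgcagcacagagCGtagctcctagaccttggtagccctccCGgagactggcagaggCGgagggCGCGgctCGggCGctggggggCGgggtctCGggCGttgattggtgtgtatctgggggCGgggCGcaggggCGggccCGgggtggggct
Before Pik3r1-201: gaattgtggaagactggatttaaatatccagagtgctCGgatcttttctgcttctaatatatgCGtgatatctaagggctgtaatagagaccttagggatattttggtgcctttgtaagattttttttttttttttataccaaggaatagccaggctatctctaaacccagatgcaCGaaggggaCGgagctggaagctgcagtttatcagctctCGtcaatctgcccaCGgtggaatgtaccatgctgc
Pik3r1-202 was 5.34, 7.81 and 6.20 TPM in homozygous and 4.11, 3.18 and 3.11 TPM in WT libraries. Its log2 difference was 0.73 (SE 0.20; limma on isoform rows, adjusted p 0.265). Pik3r1-201 was 1.28, 0.841 and 0.505 TPM in homozygous and 0.25, 0.285 and 0.146 TPM in WT libraries. Both forms thus lay above in all homozygous libraries. As a share of the gene sum, Pik3r1-201 was 17.9%, 9.19% and 7.50% in homozygous and 5.66%, 7.20% and 4.06% in WT libraries (limma on arcsine square-root shares, adjusted p 0.655). The 2 groups of shares were separated by a small margin, between homozygous replicate 3 and WT replicate 2.

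Pik3ca was split over 3 main rows. Pik3ca-202 was 3.97, 5.49 and 2.54 TPM in homozygous and 3.56, 3.96 and 3.54 TPM in WT libraries. The full-length Pik3ca-203 (1068 codons) was 3.40, 5.29 and 5.66 TPM in homozygous and 3.48, 3.23 and 0.122 TPM in WT libraries. Pik3ca-204, a fragment with a retained intron, was 3.65, 4.64 and 4.16 TPM in homozygous, 1.53 and 3.50 TPM in WT replicates 1 and 2, and listed at 0 in WT replicate 3. In WT replicate 3 Pik3ca-202 took 90.8% of the gene, against 20.1% to 39.6% in the other 5 libraries, so the isoform pattern of Pik3ca in that library differed from all others. No base of Pik3ca-202 is outside the other 2 rows. Its share was 35.4%, 34.9% and 20.1% in homozygous and 39.6%, 35.4% and 90.8% in WT libraries, with homozygous replicate 1 and WT replicate 2 almost equal.

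Akt1 (chromosome 12, 112653821 to 112674884, minus strand) encodes the Akt form tied to growth in many tissues, and Akt2 (chromosome 7, 27591552 to 27640826, plus strand) the form tied to glucose uptake. Akt1 was 31.1, 63.9 and 69.9 TPM in homozygous and 34.5, 29.2 and 20.4 TPM in WT libraries. Homozygous replicates 2 and 3 were above all WT libraries and homozygous replicate 1 lay within the WT range. Group means were 54.96 ± 20.9 and 28.0 ± 7.15 TPM (SD over n = 3 in each group). The log2 difference was 0.90 (SE 0.32; limma, adjusted p 0.175), or 0.63 beyond the all-gene median. It was 0.68 without homozygous replicate 3 and 1.26 without homozygous replicate 1.

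Nearly all of the Akt1 signal came from the full-length row Akt1-201, at 27.1, 56.9 and 66.3 TPM in homozygous and 30.0, 24.9 and 18.5 TPM in WT libraries. Its share of the gene was 85.4% to 94.9% over the 6 libraries. A fragment with a retained intron, Akt1-203, held 1.62% to 10.6%.

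Akt2 was 131, 112 and 122 TPM in homozygous and 120, 115 and 82.1 TPM in WT libraries. The groups overlapped, and only WT replicate 3 was under 100 TPM. Group means were 122 ± 9.60 and 106 ± 20.7 TPM (SD over n = 3 in each group). The difference in log2 was 0.22 (SE 0.17; limma, adjusted p 0.418), or -0.048 relative to the median of all genes. After centring it was -0.085, and -0.094 once the length trend was removed. Without WT replicate 3 it was 0.045, where the median of all genes was 0.20.

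Single Akt2 rows did not follow the pattern of their sum. Akt2-201 starts from a proximal first exon, and Akt2-214 and Akt2-205 from a distal one 14112 to 14306 nt upstream. The 3 share the same coding sequence of 1443 nt. The 250 bases before each start are shown because the rows begin at separate first exons, with CG dinucleotides in capitals. There are 10 before the distal start (chr7:27591302-27591551) and 5 before the proximal start (chr7:27605547-27605796). Both are on the plus strand, with starts of RefSeq (GRCm38.p6).
Before the distal Akt2 start: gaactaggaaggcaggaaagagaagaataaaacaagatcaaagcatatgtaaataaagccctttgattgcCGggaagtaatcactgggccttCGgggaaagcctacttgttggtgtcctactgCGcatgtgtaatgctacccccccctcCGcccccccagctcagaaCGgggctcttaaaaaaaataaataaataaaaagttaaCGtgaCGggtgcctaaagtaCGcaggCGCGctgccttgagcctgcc
Before the proximal Akt2 start: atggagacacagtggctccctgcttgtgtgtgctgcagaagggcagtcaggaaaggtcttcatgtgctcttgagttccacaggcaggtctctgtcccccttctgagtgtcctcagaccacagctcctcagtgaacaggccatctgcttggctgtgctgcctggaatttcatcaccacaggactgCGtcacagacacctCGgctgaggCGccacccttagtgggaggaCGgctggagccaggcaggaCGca
Akt2-214 was 32.7, 24.5 and 27.5 TPM in homozygous libraries, 13.8 and 15.6 TPM in WT replicates 1 and 2, and 2.64e-06 TPM, near 0 but not listed at 0, in WT replicate 3. All homozygous libraries were above all WT libraries, with a log2 difference of 2.22 (SE 1.04; limma on isoform rows, adjusted p 0.344). Without WT replicate 3 this difference was 0.89. Akt2-201 was 84.5, 73.8 and 84.1 TPM in homozygous and 92.3, 88.9 and 73.9 TPM in WT libraries, with a log2 difference of -0.069 (SE 0.14; limma on isoform rows, adjusted p 0.806), and of -0.17 without WT replicate 3. Akt2-214 and Akt2-201 thus had differences of opposite sign. Akt2-205, from the distal first exon like Akt2-214, did not follow it. It was 7.15, 6.36 and 6.04 TPM in homozygous and 7.63, 5.69 and 5.79 TPM in WT libraries, with overlapping groups.

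As a share of the gene sum, Akt2-214 was 24.9%, 21.9% and 22.6% in homozygous and 11.5%, 13.5% and 3.21e-06% in WT libraries (limma on shares, adjusted p 0.595). Akt2-201 was 64.4%, 65.8% and 69.0% in homozygous and 76.7%, 77.2% and 90.0% in WT libraries (adjusted p 0.584 in the same limma test). Both shares were apart between groups, in opposite directions, also without WT replicate 3. Akt2-214 has 15 exons against 14 in each of the other 2 rows, but no base that they lack. Apart from reads across its splice junctions, its value thus rests on how reads were split between rows. Akt2-205 also starts at the distal end and contains all bases of Akt2-214. Its own share overlapped between groups, at 5.45%, 5.67% and 4.95% in homozygous and 6.34%, 4.94% and 7.05% in WT libraries. Added together, the 2 distal rows gave 30.4%, 27.6% and 27.6% of the gene in homozygous and 17.8%, 18.5% and 7.05% in WT libraries. This sum was chosen after the values were seen, with no test, and its separation between groups came from Akt2-214.

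Gsk3b (chromosome 16, 38089001 to 38246084, plus strand) encodes a kinase that Akt inactivates. It was 8.31, 10.8 and 10.8 TPM in homozygous and 7.28, 8.13 and 4.43 TPM in WT libraries. The groups were apart by a small margin, between homozygous replicate 1 and WT replicate 2. The log2 difference was 0.55 (SE 0.22; limma, adjusted p 0.190), or 0.29 beyond the all-gene median. Centring made it 0.25, removal of the length trend 0.15 and leaving out WT replicate 3 0.33.

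Gsk3b has a splice form with an insert in the kinase domain, known from brain as GSK3-beta-2. The row Gsk3b-202 (433 codons) differs from the main row Gsk3b-201 (420 codons) by an exon of 39 nt, or 13 codons, at chromosome 16, 38217113 to 38217151, plus strand, and lacks 6592 nt of Gsk3b-201.
Gsk3b-202 exon: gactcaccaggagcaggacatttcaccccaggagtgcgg
Gsk3b-202 was 0.752, 1.33 and 1.5 TPM in homozygous libraries, and in WT it reached 0.166 TPM in replicate 1 while both other replicates are listed at 0. Its share of the gene was 9.04%, 12.3% and 13.8% in homozygous and 2.27%, 0% and 0% in WT libraries (limma on shares, adjusted p 0.305). Gsk3b-201 made up 86.2%, 83.7% and 85.7% in homozygous and 96.2%, 98.3% and 98.4% in WT libraries (adjusted p 0.267 in the same limma test). Both shares were apart between groups. Gsk3b-202 met the minimum mean share of 5% only through the homozygous libraries, so its difference in share is a description. Gsk3b-201 was tested as a share only because Gsk3b-202 met this minimum, so its lower share is a description too. The level of Gsk3b-201 itself overlapped between groups, at 7.17, 9.01 and 9.29 TPM against 7.01, 7.99 and 4.36 TPM.

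**Figure D2:**
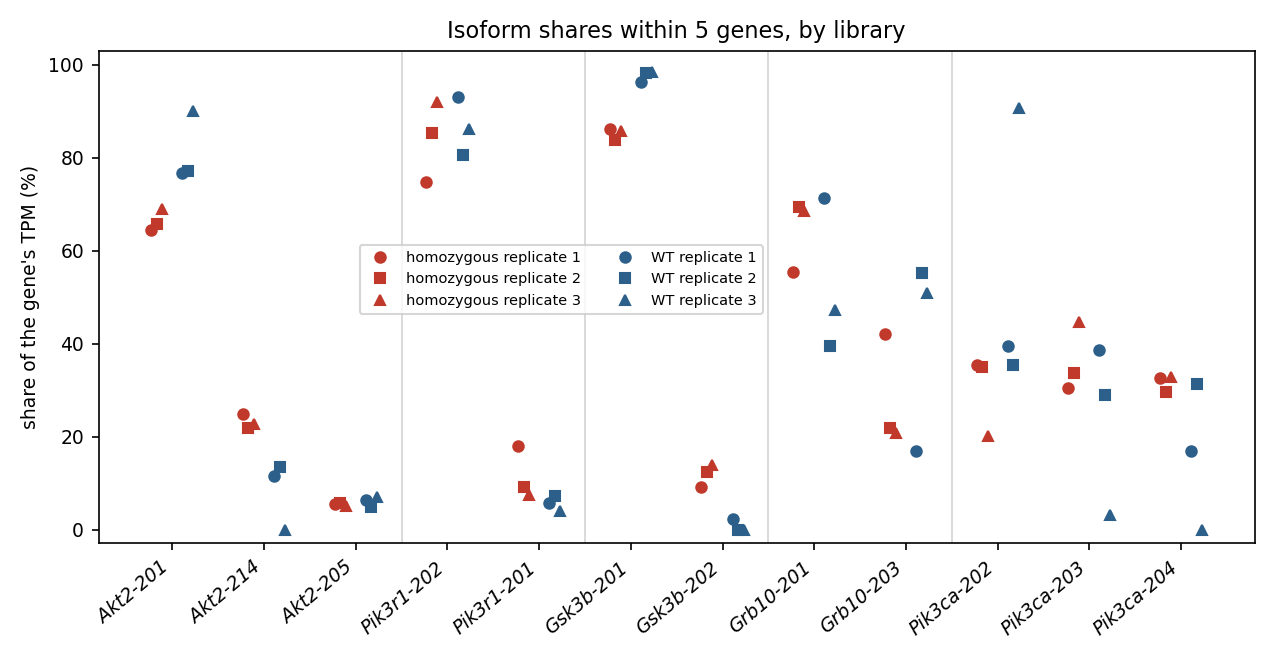
Share of the gene's TPM (%) held by each named isoform of Akt2, Pik3r1, Gsk3b, Grb10 and Pik3ca in each of 6 libraries, with homozygous libraries in red, WT in blue and marker shapes for replicates 1 to 3. Akt2-214, Gsk3b-202 and Pik3r1-201 shares are higher in all homozygous libraries, and Akt2-201 and Gsk3b-201 shares are lower, while WT replicate 3 (blue triangles) stands apart for Pik3ca-202 at 90.8%.

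The inhibitors were Grb10, an adaptor that binds the active receptor and blocks its signalling, and Ptpn1, which encodes the phosphatase PTP1B that dephosphorylates the receptor. Grb10 (chromosome 11, 11930508 to 12038683, minus strand), an imprinted gene, was 4.94, 6.85 and 5.19 TPM in homozygous and 6.93, 4.49 and 3.40 TPM in WT libraries. The groups overlapped and WT replicate 1 held the highest value. The log2 difference was 0.20 (SE 0.24; limma, adjusted p 0.587), or -0.069 relative to the median of all genes, and it was -0.11 after median centring, -0.12 after quantile normalization and -0.17 with the length trend removed. Single libraries moved it, to 0.0014 without WT replicate 3, 0.072 without homozygous replicate 2 and 0.43 without WT replicate 1, where the groups no longer overlapped.

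Grb10 was split between Grb10-201, at 55.4%, 69.5% and 68.5% of the gene in homozygous and 71.2%, 39.5% and 47.2% in WT libraries, and Grb10-203, at 42.1%, 21.8% and 20.7% against 16.9%, 55.3% and 51.0%. These shares varied widely within each group (limma on shares, adjusted p 0.743 and 0.786).

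Ptpn1 (chromosome 2, 167932057 to 167979385, plus strand) was 5.71, 6.60 and 6.94 TPM in homozygous and 3.91, 4.51 and 5.18 TPM in WT libraries. The groups were apart, and here WT replicate 3 was the highest WT library. Group means were 6.42 ± 0.636 and 4.53 ± 0.635 TPM (SD over n = 3 in each group). The log2 difference was 0.43 (SE 0.16; limma, adjusted p 0.178), or 0.16 beyond the all-gene median. Centring made it 0.12 and removal of the length trend 0.086. The main row, Ptpn1-201, was 5.13, 5.14 and 5.05 TPM against 3.70, 4.05 and 5.01 TPM, so for it WT replicate 3 was almost level with the homozygous libraries. Its group means were 5.11 and 4.25 TPM. Its log2 difference was 0.23 (SE 0.18; limma on isoform rows, adjusted p 0.508), beside a median of 0.25 over all isoform rows. Ptpn1-201 is the only coding row of the gene, so part of the difference in the gene sum lay in its 6 non-coding rows.

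**Figure D3:**
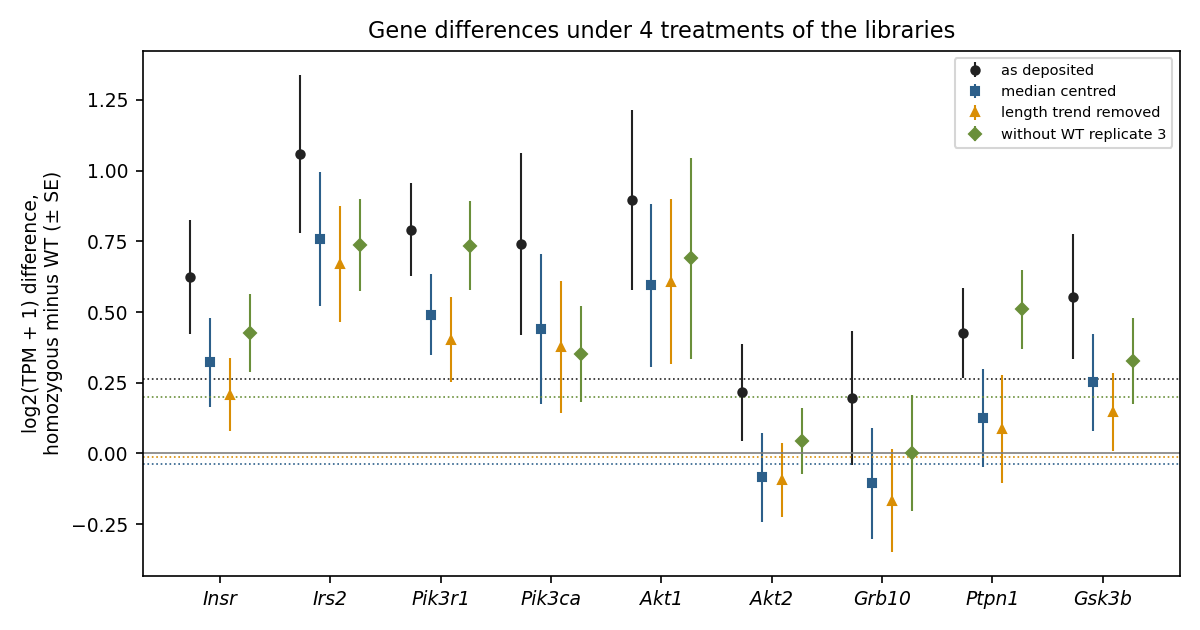
Difference in log2(TPM + 1), homozygous minus WT, with its SE, for the 9 genes as deposited, after median centring, with the length trend removed and without WT replicate 3, with dotted lines at the median of all genes under each. After centring, Irs2 and Akt1 stay farthest above the median line, with differences between groups of 0.76 and 0.59, while Akt2 and Grb10 fall below 0.

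Of the 60 rows, 18 held a mean of at least 5% of their gene, and 15 of these were tested as isoform rows. None of the 15 passed the threshold (limma, smallest adjusted p 0.265), against 0.0425% of all 21165 rows, and 3 had an unadjusted p under 0.05 with higher homozygous means, against 14.2%. Groups did not overlap for 6 of the 15, all with homozygous libraries above, against 25.6% of all rows. Of 16 rows tested as shares, 0 passed (limma, smallest adjusted p 0.267), and 0.0% of all 20866 did. In simulated data the share test recovered 0% of changes of 0.2 or 0.4 on the arcsine scale. The isoform test recovered 0% of log2 changes of 1, so rows that did not pass may still differ. Gsk3b-202 and Insr-203 reached a mean of 5% in homozygous libraries and not in WT, so they are left out of the counts that follow. Gsk3b-201 and Insr-201 stay in these counts, though each was tested only because that other row of its gene met the minimum. The percentages of all rows were not filtered this way, so the counts beside them are descriptions. Of the other 14 rows, 2 had an unadjusted p under 0.05 (Gsk3b-201 and Akt2-201), against 8.13% of all. Shares were apart between groups for 5 of the 14, against 17.1% of all. Those with homozygous libraries above were Akt2-214 and Pik3r1-201, and those with WT libraries above Akt2-201, Gsk3b-201 and Pik3ca-202. Rows of 1 gene share its reads, so a rise in the share of 1 is a fall in that of another.

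Ratios between pathway genes within a library do not depend on its scale. In 6 of 7 ratios the groups overlapped. The ratio of Grb10 to Insr was 0.566, 0.677 and 0.561 in homozygous and 0.933, 0.743 and 0.830 in WT libraries, lower in 3 of 3 homozygous libraries. Its log2 difference was -0.47, with an exact permutation p of 0.1 (two-sided, n = 3 each), the smallest that 20 assignments allow, and 0.7 after adjustment over the 7 ratios. It ran from -0.56 to -0.39 when each library was left out.

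The ratio of Akt2 to Akt1 was 4.22, 1.75 and 1.74 in homozygous and 3.49, 3.94 and 4.03 in WT libraries (log2 difference -0.70, exact permutation p 0.4, two-sided, n = 3 each; log2 difference -1.12 without homozygous replicate 1). Homozygous replicate 1 was thus the highest of the 6 libraries, and the other homozygous libraries the lowest. The ratio of Irs2 to Irs1, the 2 IRS adaptors of muscle, was 1.03, 0.915 and 0.809 in homozygous and 1.11, 0.805 and 1.23 in WT libraries, near parity in both groups. Irs1 itself was 12.2, 10.6 and 11.1 TPM in homozygous and 4.81, 7.77 and 2.01 TPM in WT libraries, without overlap. Its log2 difference was 1.20 (SE 0.34; limma, adjusted p 0.168), and 0.90 after median centring. Insr to Igf1r, the related receptor for IGF1, ran from 4.28 to 4.96 in homozygous and 3.63 to 5.07 in WT libraries. Gsk3b to Gsk3a, its close relative, ran from 0.125 to 0.156 and 0.0843 to 0.146, so Gsk3a was the more abundant in every library. Pik3r1 to Pik3ca ran from 0.533 to 0.638 in homozygous and 0.353 to 0.925 in WT libraries, and Ptpn1 to Insr from 0.653 to 0.751 and 0.526 to 1.26. For these 5 ratios the exact permutation p was 0.2 to 0.9 (two-sided, n = 3 each).

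**Figure D4:**
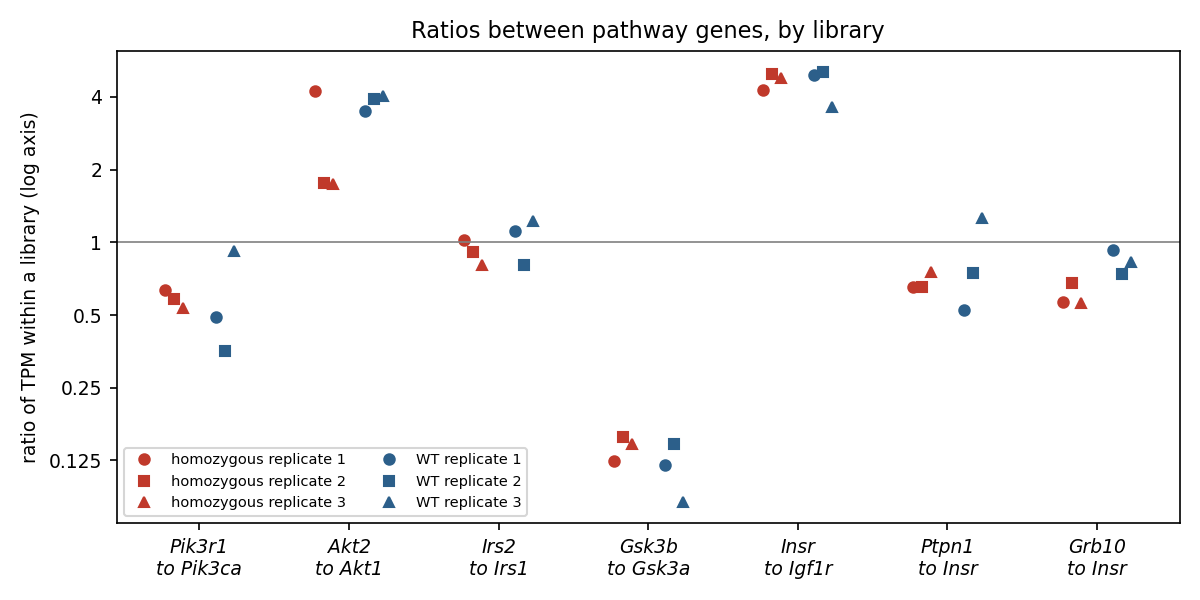
Ratio of TPM between pairs of pathway genes within each of 6 libraries (log axis), with homozygous libraries in red, WT in blue and marker shapes for replicates 1 to 3. Grb10 to Insr is the only ratio of the 7 whose groups do not overlap, and Akt2 to Akt1 is 1.74 to 1.75 in homozygous replicates 2 and 3 against 3.49 to 4.22 in the other libraries.

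Of 42 other genes of the pathway on a chosen list, 39 were tested and 0 passed the threshold in either direction (limma, smallest adjusted p 0.168). At an unadjusted p under 0.05 there were 19 of the 39, all with higher homozygous means, against 23.7% of all genes. Groups did not overlap in 23, all with homozygous libraries above, against 34.7%. Their median log2 difference was 0.36, beside 0.26 over all genes. After median centring it was 0.056, beside -0.037, and groups stayed apart in 10, 8 of them with homozygous libraries above, against 6.79% of all genes. With the length trend removed the median was -0.021, beside -0.012, with 19 of the 39 above 0, and homozygous libraries were above in 5, against 7.38% of all genes, and WT libraries in 2. By role, homozygous libraries were above without overlap for 3 of 6 receptors and adaptors, 2 of 4 PI3-kinase subunits, 1 of 3 PIP3 phosphatases, 3 of 6 Akt forms and activators, 6 of 8 tested inhibitors and 8 of 12 Akt targets. After centring these were 2, 0, 0, 0, 2 and 4.

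The 3 listed genes with the smallest p-values were Foxo1, Tbc1d1 and Socs3. Foxo1, a transcription factor that Akt keeps out of the nucleus, was 4.95, 7.39 and 7.14 TPM in homozygous and 2.16, 3.03 and 2.95 TPM in WT libraries (log2 difference 1.01, SE 0.19; limma, adjusted p 0.168). Tbc1d1, a Rab regulator of GLUT4 traffic, was 24.3, 43.5 and 50.8 TPM against 8.38, 10.5 and 17.4 TPM. Its log2 difference was 1.63, and 1.32 after median centring. Socs3, a feedback inhibitor that binds the receptor and IRS proteins, was 19.0, 6.22 and 9.86 TPM against 3.89, 1.71 and 0.677 TPM. All 3 had groups that did not overlap.

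Across the 6 libraries the 36 pairs among the 9 genes had a median Pearson r of 0.77 on log2(TPM + 1), from 0.014 (Grb10 with Ptpn1) to 0.97. These correlations share the libraries, their composition and the group difference. The genes most like Insr were Zfp687, Lrrc2 and Rrad (r = 0.998 to 0.999), and those most like the mean of the 9 genes were Ppm1a, Eloa and Tgfbr2 (r = 0.998 to 0.999). Of 11090 other genes, 2126 had an r of at least 0.9 with Insr and 2382 with the mean of the 9, so likeness over 6 libraries is common in these data.

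Promoter windows of RefSeq (250 bases before a start, GRCm38.p6) were found for 8 of the 9 genes, 14 windows in all. Insr had no window, so the counts below do not cover the receptor gene. Letters were searched on both strands. The glucocorticoid receptor half-site AGAACA was in 0 of the 14, against 16.1% of 32851 windows of the same length. The FoxO motif GTAAACA was in 1 of the 14, the window of Akt1-208, against 3.17%. The full glucocorticoid receptor palindrome, in which a half-site and its reverse complement are 3 bases apart, was in 0 of the 14 and 0.00913% of all. A match is only a match of letters in these windows.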

How the data were processed

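RNA of 6 mouse quadriceps samples was poly-A selected and made into stranded libraries, per the labels' protocols. FastQC, Trimmomatic, HISAT2, kallisto and mm10 are listed in the submitters' processing notes, without versions or roles. The authors deposited TPM per transcript in 1 table. TPM keeps no read depth, so depth is unknown here and no counting error is given. No label or header names the tool behind the table or its way of splitting reads between isoforms.

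TPM were summed per gene symbol. Differences were tested with limma 3.58.1 (R 4.3.3, trend and robust options) on log2(TPM + 1) for features with at least 1 TPM in 3 libraries, with Benjamini-Hochberg adjustment over all features and a threshold of 0.05. Log2 differences on this scale understate those of low genes. Isoform shares with a mean of at least 5% were tested with limma on the arcsine square root, and 7 within-library ratios by exact permutation. The limma tests were run on simulated data in which 200 features were changed. The gene test recovered 0%, 46.5% and 90.5% of log2 changes of 0.5, 1 and 2. The isoform test recovered 0%, 48% and 75% of log2 changes of 1, 2 and 3. On the arcsine scale the share test recovered 0%, 0% and 76.5% of changes of 0.2, 0.4 and 0.8. The labels tie no library to a named animal, so p-values measure only the spread between these 6 samples, which may be technical. Positions and exon sequences are from GENCODE M21 (GRCm38) and promoter windows from RefSeq.

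All 9 genes are named, with every row of at least 5% of its gene, pathway genes used in a ratio or among the 3 smallest p-values, and the 3 genes most like Insr or the members' mean. The members and lists were chosen with earlier results of these data known. Alternatives were scaling, filter, pseudocount, array weights, mitochondrial transcripts, the replicate block, each library left out and a length trend.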

Additional observations from a re-analysis of the deposited data

How the results depend on the processing

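The number of genes past the threshold (limma, adjusted p under 0.05) was 0 as deposited and 810 with array weights, and 0 to 2 with each library left out. It was 2 without WT replicate 1 and 1 without WT replicate 2, none of them among the 9 genes. Array weights also brought Irs2, Pik3r1, Ptpn1, Foxo1, Tbc1d1 and Irs1 past the threshold. The number of isoform rows was 9, against 3 after quantile normalization, 5 after median centring, 0 with no filter, 4 with a pseudocount of 0.1, 14 with array weights, 5 without mitochondrial transcripts and 4 with the length trend removed, an alternative chosen after seeing the data. With each library left out it ran from 0 to 36. The value of 36 came without WT replicate 1. Leaving out homozygous replicate 3 gave 1, and leaving out either other homozygous library or WT replicate 3 gave 0. The number of shares was 0, and 110 on the log2(share + 0.01) scale. The cause of these changes was not tested.

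The log2 difference of Akt2 changed sign to -0.085 on median centring and to -0.094 once the length trend was removed. That of Grb10 changed to -0.12 after quantile normalization, -0.11 after median centring, -0.045 with array weights and -0.17 with the length trend removed. With the length trend removed, Igf1r was -0.021 and the isoform Gsk3b-201 -0.027. With each library left out, the share difference of Pik3r1-202 (arcsine scale) ran from -0.092 to 0.029 (0.018 without WT replicate 1). The log2 ratio difference ran from -0.21 (without WT replicate 2) to 0.48 for Pik3r1 to Pik3ca, from -0.099 (without WT replicate 3) to 0.14 for Insr to Igf1r, and from -0.50 to 0.13 (without WT replicate 3) for Ptpn1 to Insr. The cause was not tested.

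With the replicate number as a block, 0 genes, 0 isoform rows and 0 shares passed. Same-numbered libraries had deviations from the group means that correlated at -0.071, 0.061 and -0.013 across genes. Pairs with different numbers ran from -0.139 to 0.131. With 3 libraries per group these values cannot tell whether same-numbered libraries share a litter or batch, and the labels do not say. TPM without counts limits what can be said of rows listed at 0.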
